A study of Mus musculus with 4 samples.

Results

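The 38 genes described here encode the enzymes and transporters that bring glucose into the cell, break it down to pyruvate and exchange lactate. They also encode enzymes that oxidise pyruvate or control that step, and those of the pentose phosphate pathway. They were chosen by name from a deposited table of 23920 mouse genes, and their FPKM values, fragments scaled to transcript length and library size, were summed over the transcripts of each gene. All 38 were found, and 36 reached 1 FPKM in at least 1 library. The exceptions were *Eno2*, the neuronal enolase, at 0.29 to 0.49 FPKM, and *Fbp1*, a gluconeogenic phosphatase, at 0 to 0.04 FPKM.

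The study asked how IL-3 and the transcription factor STAT5 act on osteoclast formation, and it sequenced bone marrow-derived macrophage-like cells (BMMs), the precursors from which RANKL, the osteoclast-inducing cytokine, drives osteoclasts. The 4 libraries were 1 per condition, each from C57BL/6 mice labelled as male and aged 8 weeks and from cultures labelled 24 h. *Stat5* fl/fl cells, in which the floxed genes are intact, received M-CSF (30 ng/mL) alone, M-CSF with RANKL (100 ng/mL), or these together with 1 ng/mL of IL-3. *Stat5* cKO cells, from floxed littermates carrying Mx1-Cre, received all of M-CSF, RANKL and IL-3 at these doses. Mx1-Cre is switched on by interferon in many cell types, and per the study's methods both genotypes were given poly I:C to induce it, so that this treatment is common to all the cells. All conditions shared M-CSF, and no cKO library without IL-3 was analysed here. The study's methods give a different age for the mice of the osteoclast cultures.

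Depth, estimated from the spacing of low values, was 33.2 to 36.8 M fragments per library. The targeted genes followed the genotype, with *Stat5a* at 9.89, 10.8, 12 and 0.17 FPKM and *Stat5b* at 10.8, 7.80, 8.86 and 0.19 FPKM. Here and below, 4 values in a row are the control libraries (M-CSF, then RANKL, then IL-3 added) followed by the cKO library. The cell type field of every sample names osteoclasts, but the M-CSF library, titled as precursors, had low osteoclast markers, which summed to 45.9 FPKM against 1277 FPKM with RANKL. *Calcr*, the calcitonin receptor of mature osteoclasts, was listed at 0 in all 4 libraries. The sex label was not borne out in any library, since *Xist*, transcribed from the inactive X chromosome of females, was at 31.9 to 47.0 FPKM and 4 of 4 Y-linked genes checked were at 0 in every library. Of 25 markers found for B, T, dendritic, stromal, erythroid and mast cells or basophils, 21 were under 1 FPKM in every library. The exceptions were *Gata2* (0.26, 2.15, 0.59 and 2.75 FPKM), *Mcpt8* (0.27, 0, 1.61 and 0.41), *Cd79b* (at most 1.61) and *Nkg7* (at most 1.16), whereas 6 of 6 neutrophil markers were present in every library. With 1 library per condition there was no replicate error, so no difference could be tested, and in bulk RNA fewer cells of a type and less RNA per cell cannot be told apart.

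As background, glucose enters macrophages through facilitative transporters, is trapped as glucose 6-phosphate by hexokinase, and is then either split to pyruvate by glycolysis or oxidised in the pentose phosphate pathway, which yields NADPH and ribose. Pyruvate is reduced to lactate and exported, or enters the mitochondrion and is oxidised by the pyruvate dehydrogenase complex. Osteoclasts are rich in mitochondria and use both glycolysis and respiration while they form and resorb bone.

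Glycolytic transcripts were abundant in all conditions. The 38 genes summed to 9329, 9954, 10108 and 10649.9 FPKM, which was 1.78%, 1.96%, 1.86% and 2.02% of all FPKM. The 5 most abundant made up 63.1%, 67.0%, 65.4% and 68.4% of these sums. By their mean over the libraries, these were *Gapdh*, *Pkm*, *Aldoa*, *Eno1* and *Pgk1*. *Taldo1*, *Pgd* or *Ldha* exceeded *Pgk1* in some libraries.

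Within this total, 5 of the 36 measured genes were at least 2-fold apart in at least 1 of 3 comparisons, on the scale log2(FPKM + 1). This was 13.9% of them, near the 15.8% of all 10763 genes measured. They were the glucose transporters *Slc2a1* and *Slc2a6*, the hexokinase *Hk3*, the regulatory enzyme *Pfkfb4* and the monocarboxylate transporter *Slc16a1*. None of the 12 members with a mean of at least 200 FPKM was among them, and for each of these the highest library was 1.06 to 1.80 times the lowest. Of all 385 genes at that level, 19.0% were 2-fold apart in at least 1 comparison.

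**Figure D1:**
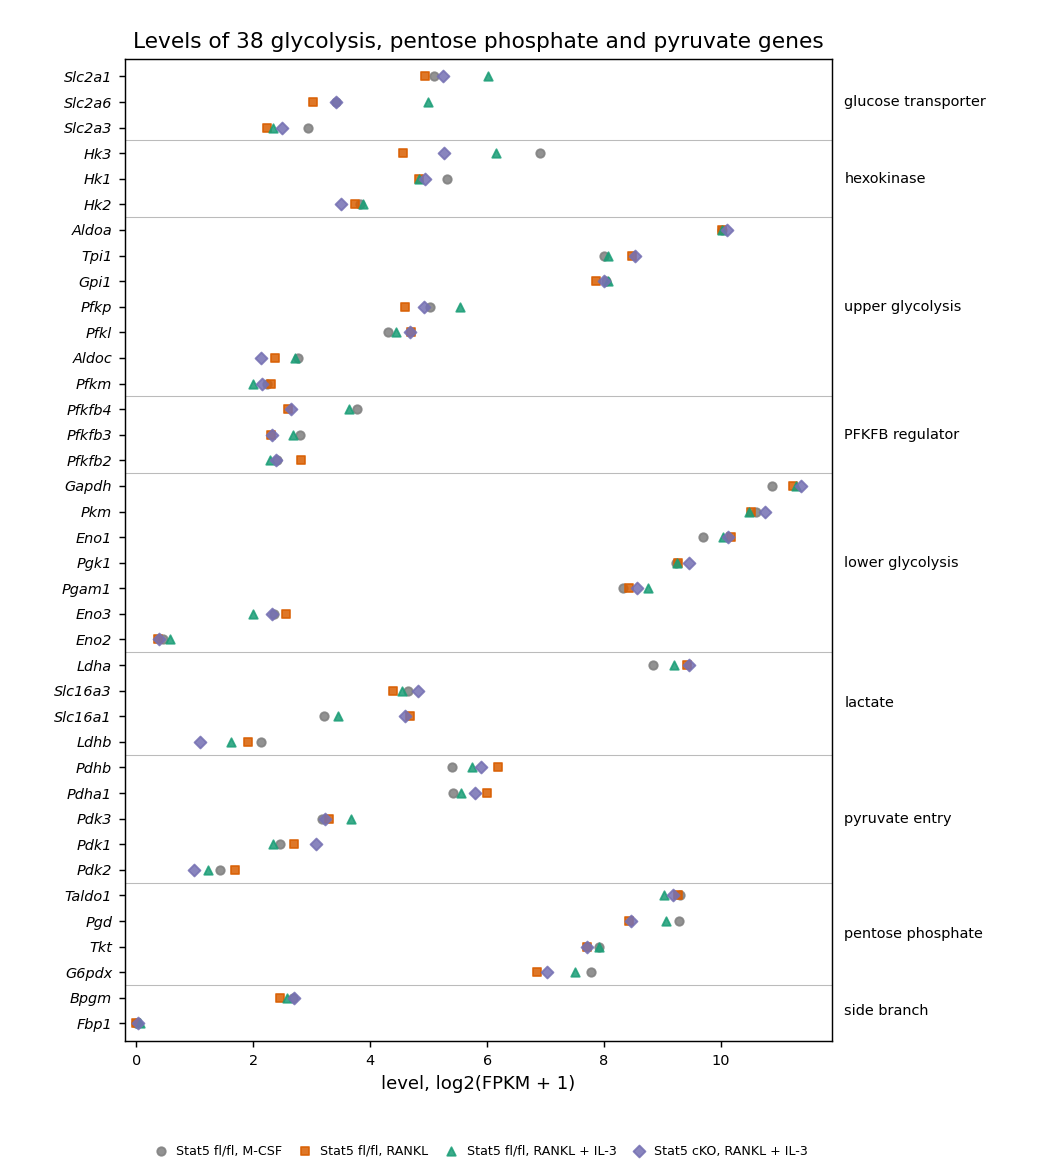
Level of each of the 38 genes on the log2(FPKM + 1) scale, grouped by role, with 1 point for each of the 4 libraries. The points of the abundant enzymes lie close together, and those of *Hk3*, *Slc2a6*, *Slc2a1*, *Pfkfb4* and *Slc16a1* are spread apart.

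In RANKL against M-CSF, 1 member was at least 2-fold higher, *Slc16a1*, where 5.44% of all genes were, and 2 were at least 2-fold lower, *Hk3* and *Pfkfb4*, where 6.88% of all genes were. The other 33 lay within 2-fold. The median log2 ratio of the members was -0.06, with the middle range from -0.39 to 0.28, beside a median of 0.14 over all genes.

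In RANKL with IL-3 against RANKL, 4 members were at least 2-fold higher, *Hk3*, *Pfkfb4*, *Slc2a1* and *Slc2a6*, or 11.1% of those measured, where 6.11% of all genes were. Only *Slc16a1* was at least 2-fold lower, where 3.47% of all genes were. The median was 0.02, beside -0.15 over all genes.

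Where cKO cells were set against control cells under IL-3, *Slc16a1* was the 1 member at least 2-fold higher, where 2.11% of all genes were. *Pfkfb4* and *Slc2a6* were at least 2-fold lower, where 4.28% of all genes were. The median was 0.09, beside 0.13 over all genes. In all 3 comparisons the counts of members rest on so few genes that they are given as a description only.

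Other thresholds and another scaling changed these counts. At 1.5-fold, RANKL had 4 members higher and 5 lower, beside 15.6% and 13.9% of all genes. The additions were *Ldha*, *Pdha1* and *Pdhb* on the higher side and *G6pdx*, *Pgd* and *Slc2a3* on the lower. IL-3 had 7 higher and 1 lower (12.1% and 12.7% of all genes), with *G6pdx*, *Pgd* and *Pfkp* added to the higher ones. In cKO cells 2 were higher and 6 lower (8.43% and 8.89%). At 4-fold, *Hk3* was the 1 member left, lower for RANKL. Of all genes 1.15% were higher and 1.51% lower for RANKL at 4-fold. The shares were 1.63% and 0.688% with IL-3 and 0.316% and 1% in cKO cells.

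When libraries were scaled to a common median ratio, 2-fold calls of members were 1 higher and 4 lower for RANKL (4.04% and 8.71% of all genes), 5 higher and 1 lower for IL-3 (7.6% and 2.51%), and 1 higher and 3 lower for cKO (1.72% and 5.15%). The additions were *G6pdx* and *Pgd* for RANKL, *Pfkp* for IL-3 and *Hk3* for cKO. Among all genes 2-fold apart, 44.2%, 63.8% and 33.0% were higher in the 3 comparisons, and 31.7%, 75.2% and 25% after this scaling.

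**Figure D2:**
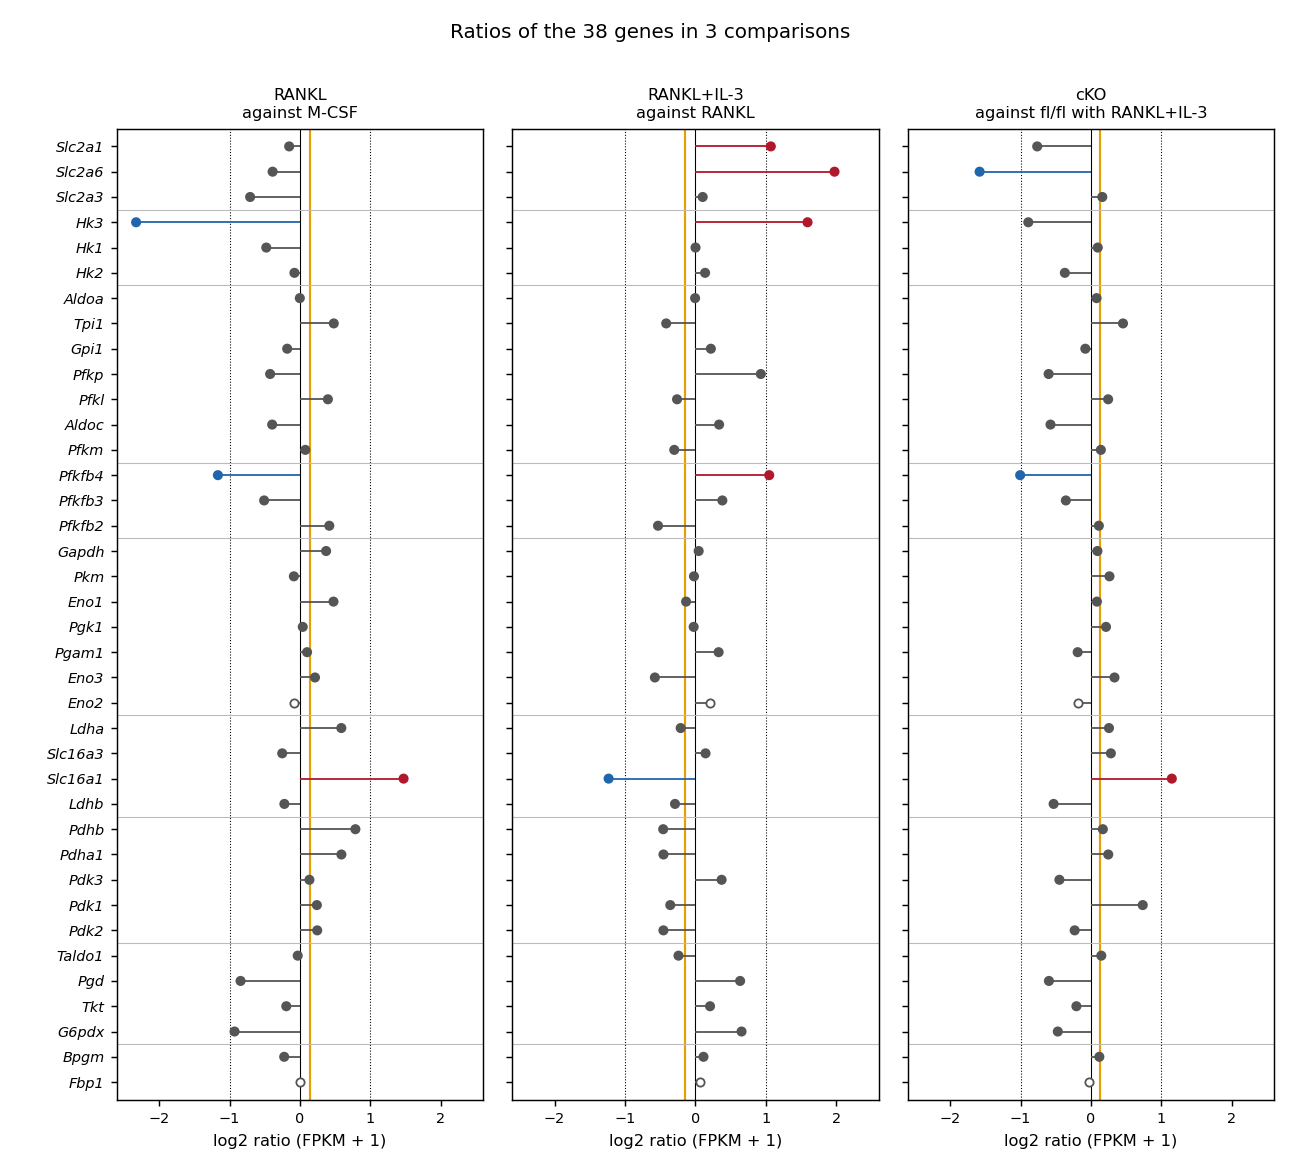
Log2 ratio of each gene, from FPKM + 1, in the 3 comparisons, with dotted lines at 2-fold, an orange line at the median of all genes, red or blue points at least 2-fold higher or lower, and open points for *Eno2* and *Fbp1*, which did not reach 1 FPKM. Most points lie within the lines, and the 5 genes that cross them in at least 1 panel are *Slc2a1*, *Slc2a6*, *Hk3*, *Pfkfb4* and *Slc16a1*.

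The RANKL library is the control of one of these comparisons and the treated library of another, and RANKL with IL-3 is shared in the same way. The 5 genes are therefore given below by their level in every library, as are most other members, and the rest by their range. The half-width of the 95% interval from counting error was 0.05 to 0.16 log2 units for the ratios of these 5 genes. It was at most 0.03 for the 12 abundant members and reached 0.48 for *Ldhb*, the heart-type lactate dehydrogenase subunit. These widths rest on the estimated depth and leave out variation between cultures and mice.

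The promoters of the 5 genes are shown because these are the members at least 2-fold apart in at least 1 of the 3 comparisons. Other pairs of libraries were not compared. Over all libraries the highest FPKM was 3.01 times the lowest for *Ldhb* and 2.23 times for *Pdk2*, both low genes, beside 2.14 times for *Slc2a1*. They come from RefSeq on GRCm38.p6, the assembly also called mm10, and run from 250 bases before to 50 bases after an annotated start, 5′ to 3′ on the gene's strand. Capitals mark ACGTG or GCGTG on either strand, the core of sites bound by hypoxia-inducible factors, which overlaps the E-box CACGTG. On GRCm38, *Slc2a6* spans chr2:27021363-27028000, *Slc2a1* chr4:119108745-119137330 and *Hk3* chr13:55005985-55021475. For *Hk3* and *Pfkfb4* the RefSeq start lies inside the span of the gene annotation used here.
*Slc2a6*, chr2:27027949-27028248 on the minus strand: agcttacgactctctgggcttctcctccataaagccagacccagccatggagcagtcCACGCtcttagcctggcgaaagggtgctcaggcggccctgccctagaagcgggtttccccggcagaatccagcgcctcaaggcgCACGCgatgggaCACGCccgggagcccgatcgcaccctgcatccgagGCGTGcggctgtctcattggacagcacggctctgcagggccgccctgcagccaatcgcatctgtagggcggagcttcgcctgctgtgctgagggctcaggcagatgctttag
*Slc2a1*, chr4:119108495-119108794 on the plus strand: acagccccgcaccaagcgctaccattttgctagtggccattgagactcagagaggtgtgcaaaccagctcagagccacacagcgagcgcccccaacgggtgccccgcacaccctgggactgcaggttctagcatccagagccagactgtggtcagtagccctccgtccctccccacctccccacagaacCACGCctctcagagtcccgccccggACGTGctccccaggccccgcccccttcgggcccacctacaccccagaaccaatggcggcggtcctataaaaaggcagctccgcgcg
*Hk3*, chr13:55021336-55021635 on the minus strand: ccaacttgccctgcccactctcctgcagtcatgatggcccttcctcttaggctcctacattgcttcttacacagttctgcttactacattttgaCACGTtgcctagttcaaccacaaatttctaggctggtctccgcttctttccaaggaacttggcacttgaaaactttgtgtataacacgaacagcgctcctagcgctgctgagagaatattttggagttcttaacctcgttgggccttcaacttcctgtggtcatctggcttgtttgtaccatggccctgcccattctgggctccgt
*Pfkfb4*, chr9:108991652-108991951 on the plus strand: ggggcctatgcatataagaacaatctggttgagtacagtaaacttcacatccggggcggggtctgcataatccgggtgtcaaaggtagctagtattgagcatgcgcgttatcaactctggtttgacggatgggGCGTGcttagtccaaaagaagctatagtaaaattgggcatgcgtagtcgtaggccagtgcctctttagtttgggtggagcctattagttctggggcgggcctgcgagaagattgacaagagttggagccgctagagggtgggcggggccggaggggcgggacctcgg
*Slc16a1*, chr3:104638414-104638713 on the plus strand: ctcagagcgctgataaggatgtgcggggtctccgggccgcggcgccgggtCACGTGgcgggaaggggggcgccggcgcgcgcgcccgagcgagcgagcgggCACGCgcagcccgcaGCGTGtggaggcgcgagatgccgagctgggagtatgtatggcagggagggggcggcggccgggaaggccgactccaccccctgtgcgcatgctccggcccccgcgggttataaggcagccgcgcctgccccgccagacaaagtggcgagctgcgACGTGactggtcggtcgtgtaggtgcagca

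TTCNNNGAA, the palindrome that STAT proteins can bind, was absent from all 5 windows, and CACGTG occurred once, in that of *Slc16a1*. Over the 54 promoters found for 37 of the 38 members, TTCNNNGAA was in 2, those of *Aldoc* and *Pfkm*, which is 3.70% beside 8.30% of 32851 promoters of all genes and 6.83% of those of the measured genes. CACGTG was in 6 (11.1%, beside 7.15% and 10.3%). ACGTG or GCGTG was in 42 (77.8%, beside 43.8% and 62.5%). These are matches of letters in short windows, and whether any factor binds there was not measured.

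Of the 3 glucose transporters, *Slc2a6* and *Slc2a1* were at least 2-fold higher with IL-3. *Slc2a6*, which encodes GLUT6, was at 9.63 FPKM under M-CSF, 7.11 under RANKL, 30.9 once IL-3 was added, and 9.65 in the cKO library. Control cells given IL-3 stood above the other 3 libraries, which lay close together. Its log2 ratio was -0.39 with RANKL, 1.97 when IL-3 was added (4.34-fold in FPKM) and -1.58 in cKO cells (3.20-fold lower).

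*Slc2a1* encodes GLUT1, the main glucose transporter of activated macrophages. It had the same high library, with 33.1, 29.6, 63.3 and 36.9 FPKM. The log2 ratio was -0.15 with RANKL and 1.07 with IL-3 (2.14-fold in FPKM), and in cKO cells it was -0.76, short of 2-fold. The high-affinity transporter *Slc2a3* was at 6.65, 3.68, 4.02 and 4.61 FPKM, with no ratio past 2-fold. The 3 transporters together summed to 49.4, 40.4, 98.2 and 51.1 FPKM.

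Hexokinases catalyse the first step of glucose use. *Hk3*, the isoform typical of myeloid cells, was at 118 FPKM under M-CSF, 22.7 under RANKL, 70.5 once IL-3 was added, and 37.6 in cKO cells. RANKL gave the lowest level and M-CSF the highest, and the library with IL-3 and intact *Stat5* lay between them. Its ratio for RANKL was the lowest of any member, -2.33 (5.20-fold lower in FPKM). With IL-3 it was 1.59 (3.10-fold), and in cKO cells -0.89 (1.88-fold lower).

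The broadly expressed *Hk1* was at 38.9, 27.6, 27.6 and 29.6 FPKM, and the insulin- and hypoxia-responsive *Hk2* at 13.1, 12.3, 13.6 and 10.3 FPKM. The ratios of *Hk1* and *Hk2* were between -0.48 and 0.14. Hexokinase transcripts summed to 170.2, 62.6, 112 and 77.5 FPKM, with *Hk3* the highest of the 3 except under RANKL, where it was below *Hk1*.

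**Figure D3:**
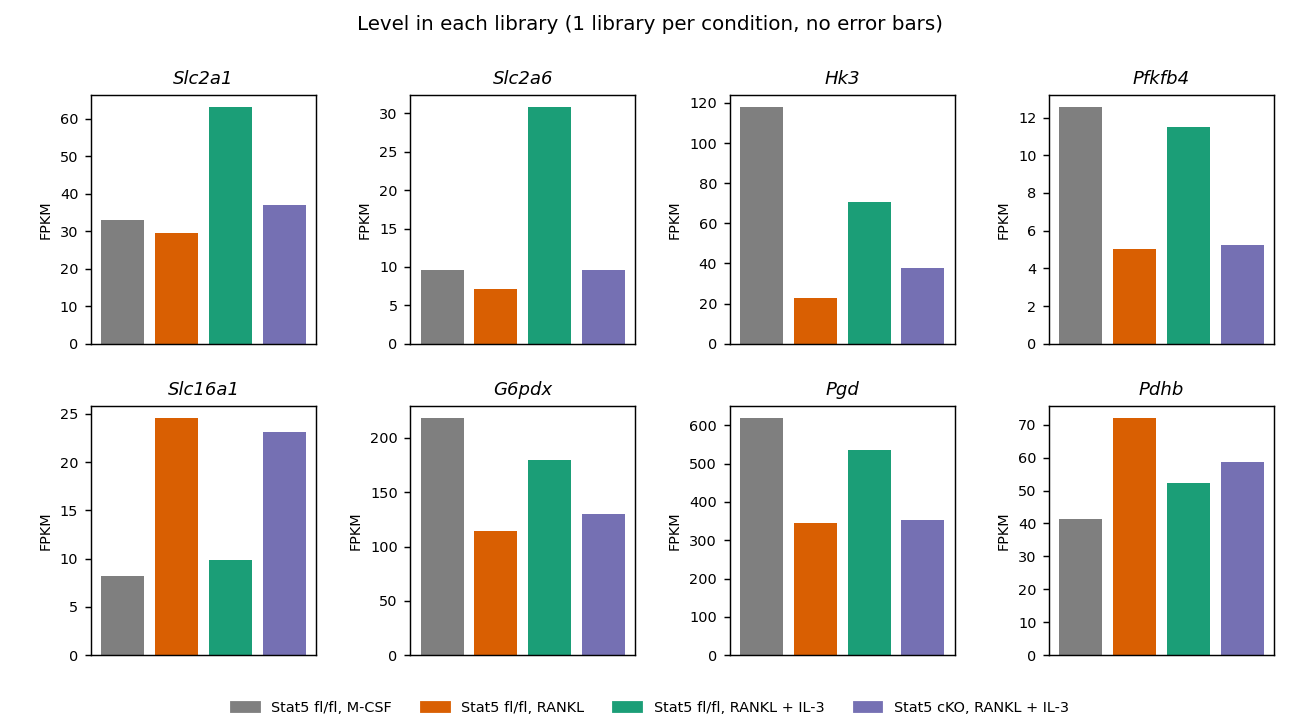
FPKM of selected members in each of the 4 libraries as bars from 0, with 1 library per condition and no error bars. *Slc2a6* and *Slc2a1* are highest in control cells given IL-3, and *Slc16a1* is high with RANKL and in cKO cells and low in the other libraries.

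Among the steps that follow, phosphofructokinase commits sugar to glycolysis and the PFKFB enzymes set the level of its activator, fructose 2,6-bisphosphate. *Pfkfb4* (chr9:108988272-109032236) was at 12.6 FPKM under M-CSF, 5.05 under RANKL, 11.5 once IL-3 was added, and 5.23 in cKO cells. The libraries with M-CSF alone and with IL-3 in *Stat5* fl/fl cells were high, and the other pair was low. Its ratios of -1.17, 1.05 and -1.01 lay just past 2-fold, and it was the only member besides *Slc16a1* called in all 3 comparisons.

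*Pfkfb3*, an isoform in which the kinase activity prevails, was at 5.99, 3.90, 5.39 and 3.99 FPKM. Its ratios of -0.51, 0.38 and -0.36 had the signs of those of *Pfkfb4*, and none was 2-fold. *Pfkfb2* was at 4.28, 6.04, 3.86 and 4.26 FPKM and was highest with RANKL.

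The subunits of phosphofructokinase itself differed from each other. The platelet-type *Pfkp* was at 31.6, 23.2, 45.1 and 29.4 FPKM, highest with IL-3, where its ratio of 0.93 fell just short of 2-fold. The liver-type *Pfkl* was at 18.7, 25, 20.6 and 24.6 FPKM, with ratios of 0.39, -0.26 and 0.24. The muscle-type *Pfkm* stayed between 3.00 and 3.93 FPKM.

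The other enzymes between glucose 6-phosphate and pyruvate stayed within 2-fold in all 3 comparisons. *Aldoa*, the main aldolase, was at 1042, 1039, 1035 and 1094 FPKM, with ratios between -0.01 and 0.08. *Gpi1*, the glucose 6-phosphate isomerase, was at 262, 230.4, 268 and 254 FPKM. *Aldoc*, the brain-type aldolase, was at 3.39 to 5.82 FPKM.

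*Tpi1*, which interconverts the triose phosphates, was at 256, 358, 268 and 367 FPKM. Its levels were higher with RANKL and in cKO cells than in the other libraries, with ratios of 0.48, -0.42 and 0.46, none of them 2-fold.

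*Gapdh*, the most abundant member and often a reference gene, was at 1872, 2419, 2495 and 2660.2 FPKM. It was lowest with M-CSF, with ratios of 0.37, 0.05 and 0.09. *Pgk1*, the first ATP-yielding enzyme of the pathway, was at 599, 615, 604 and 700.4 FPKM, and its largest ratio was 0.21, in cKO cells.

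*Pgam1*, a phosphoglycerate mutase, was at 321, 344, 432 and 379 FPKM and was highest with IL-3. *Eno1*, the ubiquitous enolase, was at 825, 1147, 1045 and 1108 FPKM, with ratios of 0.47, -0.13 and 0.08. Its near copy *Gm5506*, a processed gene, was at 167, 229.8, 219 and 402 FPKM, and how reads were split between them is not given in the sources used here. Summed, they were at 992, 1376, 1264 and 1510.0 FPKM, which put the cKO ratio at 0.26. *Eno3*, the muscle enolase, was at 2.96 to 4.91 FPKM. *Gapdh*, *Pgk1*, *Ldha* and other members also have pseudogene copies in the mouse genome, and their values carry the same uncertainty.

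*Pkm*, pyruvate kinase, was at 1547, 1455, 1433 and 1720.3 FPKM, highest in cKO cells, and its ratios were -0.09, -0.02 and 0.26. The gene (chr9:59656576-59679372) makes the M1 and M2 enzymes from a pair of mutually exclusive exons of 167 bases, which differ at 64 positions. Their sequences are shown because this choice of exon is what the transcript values of *Pkm* measure. Capitals mark the positions that differ, and both are on the plus strand of GRCm38.
PKM2 exon, chr9:59675568-59675734: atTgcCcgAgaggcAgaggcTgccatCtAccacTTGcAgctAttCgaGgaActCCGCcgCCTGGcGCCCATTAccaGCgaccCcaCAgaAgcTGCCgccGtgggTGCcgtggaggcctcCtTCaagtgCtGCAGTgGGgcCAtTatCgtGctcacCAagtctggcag
PKM1 exon, chr9:59675029-59675195: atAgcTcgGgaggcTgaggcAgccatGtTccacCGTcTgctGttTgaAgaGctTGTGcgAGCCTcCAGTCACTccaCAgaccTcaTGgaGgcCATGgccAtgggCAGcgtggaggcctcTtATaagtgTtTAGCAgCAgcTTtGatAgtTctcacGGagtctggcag

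The transcript with the M2 exon (NM_011099) was at 1422, 1340, 1334 and 1578 FPKM. This was 91.9%, 92.1%, 93.1% and 91.7% of the gene. The transcript with the M1 exon (NM_001253883) was at 125, 115, 99.4 and 142 FPKM, or 8.07%, 7.92%, 6.94% and 8.28%. M2, the form of proliferating cells and macrophages, thus led in every library and its share differed little between them.

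Of the 16 members with at least 2 annotated transcripts, 15 had the same leading transcript in all 4 libraries. The exception was *Slc16a3*, which encodes the lactate exporter MCT4. NM_001038653 was 47.3%, 51.2%, 39.6% and 53.7% of the gene and NM_030696 was 46.4%, 42.5%, 54.6% and 38.3%, so the second led only with IL-3 in *Stat5* fl/fl cells. In *Hk3*, NM_001033245 led throughout, with 59.3%, 74.4%, 56.4% and 54.8%. Estimates of transcripts that share most of their sequence are less certain than sums over the gene.

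**Figure D4:**
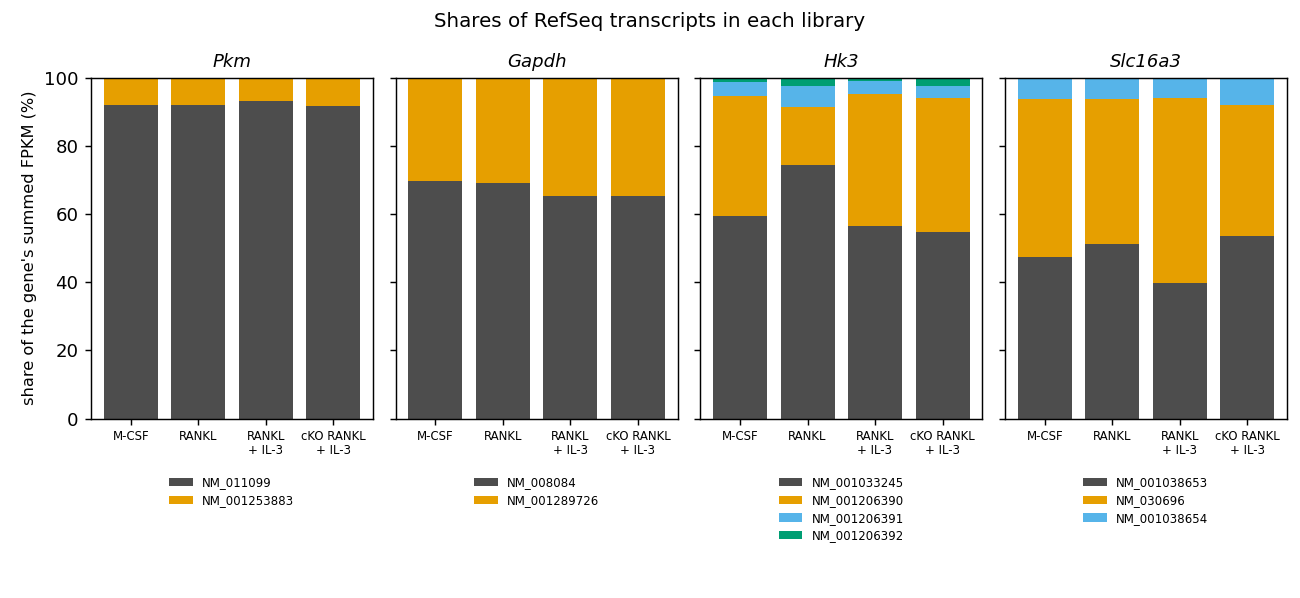
Share of a gene's summed FPKM held by its RefSeq transcripts in each of the 4 libraries, as stacked bars in percent. The M2 transcript of *Pkm* holds 91.7% to 93.1% in every library, and the leading transcript of *Slc16a3* changes in the control library given IL-3.

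Among the lactate genes, *Slc16a1* was called in all 3 comparisons, in directions opposite to those of *Pfkfb4*. It encodes the proton-linked lactate and pyruvate transporter MCT1 (chr3:104638664-104658462) and was at 8.23 FPKM under M-CSF, 24.6 under RANKL, 9.87 once IL-3 was added, and 23.1 in cKO cells. The RANKL and cKO libraries were high and near each other, and the other pair was low. Its ratios were 1.47 (2.99-fold), -1.23 (2.49-fold lower) and 1.15 (2.34-fold).

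*Ldha*, the subunit that favours the making of lactate, was at 454, 682, 589 and 704 FPKM. It too was higher with RANKL and in cKO cells, with ratios of 0.59, -0.21 and 0.26, none of them 2-fold. *Ldhb* was low, at 3.36, 2.73, 2.05 and 1.11 FPKM, from an estimated 53 to 145 fragments per library. Its counting interval was the widest of the measured members, with a half-width of up to 0.48 log2 units. *Slc16a3* was at 24.1, 20.02, 22.2 and 27.2 FPKM and stayed within 2-fold.

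The 5 members grouped as pyruvate entry encode subunits of pyruvate dehydrogenase or kinases that switch the complex off. All had ratios above 0 for RANKL, and none was 2-fold. Their median was 0.24, beside 0.14 over all genes, most of which were thus above 0 too. *Pdk3*, at 0.13, was below the median of all genes. The mitochondrial pyruvate carrier genes *Mpc1* and *Mpc2*, from the wider pathway list, had ratios of -0.34 and 0.07 for RANKL. *Pdha1*, the catalytic subunit of pyruvate dehydrogenase, was at 41.7, 63.1, 45.8 and 54.5 FPKM, and its partner *Pdhb* at 41.4, 72.1, 52.2 and 58.8 FPKM. The RANKL library was the highest of the 4 for both, with ratios for RANKL of 0.59 and 0.79.

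The same course was seen over the 5 genes of the complex, when *Dlat*, *Dld* and *Pdhx* from the wider pathway list were added. They summed to 154, 245, 179.7 and 209.8 FPKM. Their ratios were 0.54 to 0.79 with RANKL, -0.54 to -0.28 with IL-3 and 0.17 to 0.40 in cKO cells. The medians of all genes were 0.14, -0.15 and 0.13.

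The kinases that switch the complex off did not move as 1 group. *Pdk1* was at 4.51, 5.50, 4.07 and 7.45 FPKM, highest in cKO cells, where its ratio was 0.74. *Pdk3* was at 7.98, 8.84, 11.7 and 8.33 FPKM, highest with IL-3. *Pdk2* was at 0.99 to 2.2 FPKM.

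In the pentose phosphate pathway both oxidative dehydrogenases among the members were lower with RANKL and in cKO cells than in their comparators, none by 2-fold. *G6pdx* (chrX:74409483-74428880), the rate-limiting glucose 6-phosphate dehydrogenase, was at 218 FPKM under M-CSF, 114 under RANKL, 180.0 once IL-3 was added, and 129.6 in cKO cells. Its ratios were -0.93, 0.65 and -0.47. *Pgd* (chr4:149149991-149166705), the next dehydrogenase, was at 619, 344, 535 and 353 FPKM, with ratios of -0.85, 0.63 and -0.60.

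For both dehydrogenases the M-CSF library was highest, IL-3 with intact *Stat5* came next, and the RANKL and cKO libraries were lowest. After the median scaling their ratios for RANKL were -1.09 and -1.01. Other oxidative genes, from the wider pathway list, had another course. *Pgls*, the lactonase between the dehydrogenases, had ratios of 0.24, -0.32 and 0.17, and *H6pd*, the enzyme of the endoplasmic reticulum, -0.30, -0.45 and -0.05. The non-oxidative enzymes were steadier, with *Taldo1* (transaldolase) at 631, 616, 521 and 577 FPKM and *Tkt* (transketolase) at 239, 209, 241 and 209 FPKM. The 4 genes summed to 1707, 1283, 1477 and 1269 FPKM. In the red-cell side branch, *Bpgm*, bisphosphoglycerate mutase, was at 4.49 to 5.45 FPKM.

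The 6 neutrophil markers summed to 1255, 709.9, 1039 and 741 FPKM, led by *S100a8* and *S100a9*, and this sum had the order of *Hk3*, *G6pdx* and *Pgd*. Single markers did not all keep it, as *Ltf*, *Ngp* and *Elane* had another order. Their log2 ratios were -0.90 to -0.46 with RANKL, 0.15 to 0.97 with IL-3 and -1.24 to 0.10 in cKO cells. Most macrophage markers moved the same way. By the 2-fold measure 9 of 10 were lower under RANKL, where 6.88% of all genes were. Under IL-3, 6 were above the RANKL library (6.11% of all genes), and cKO cells had 5 below control cells (4.28%). *Cd14* had a ratio of 0.75 in cKO cells, *Mrc1* was highest with IL-3, and *C1qb* and *Cd68* were lowest in cKO cells. The ratio of *Cd68* under RANKL was -0.36, short of 2-fold. Of 8 measured osteoclast markers, 7 were higher under RANKL by that measure (5.44% of all genes), and IL-3 left 7 below the RANKL library (3.47%). In cKO cells 5 were above control cells (2.11%), the order of *Slc16a1*. *Itgb3* went the other way, with ratios of -0.39, 0.23 and -0.60. What part the mixture of cells had in the levels of these members was not tested.

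The comparison of RANKL with M-CSF has no library in common with that of the genotypes. In this pair, 26 of the 36 measured members had ratios of the same sign, 13 above 0 and 13 below in both. This was 72.2%, beside 80.2% of all genes. Pearson's r between the ratios was 0.68 over the members and 0.67 over all genes, and Spearman's rho was 0.64 and 0.71, across genes of the same 4 libraries, which are not independent replicates.

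**Figure D5:**
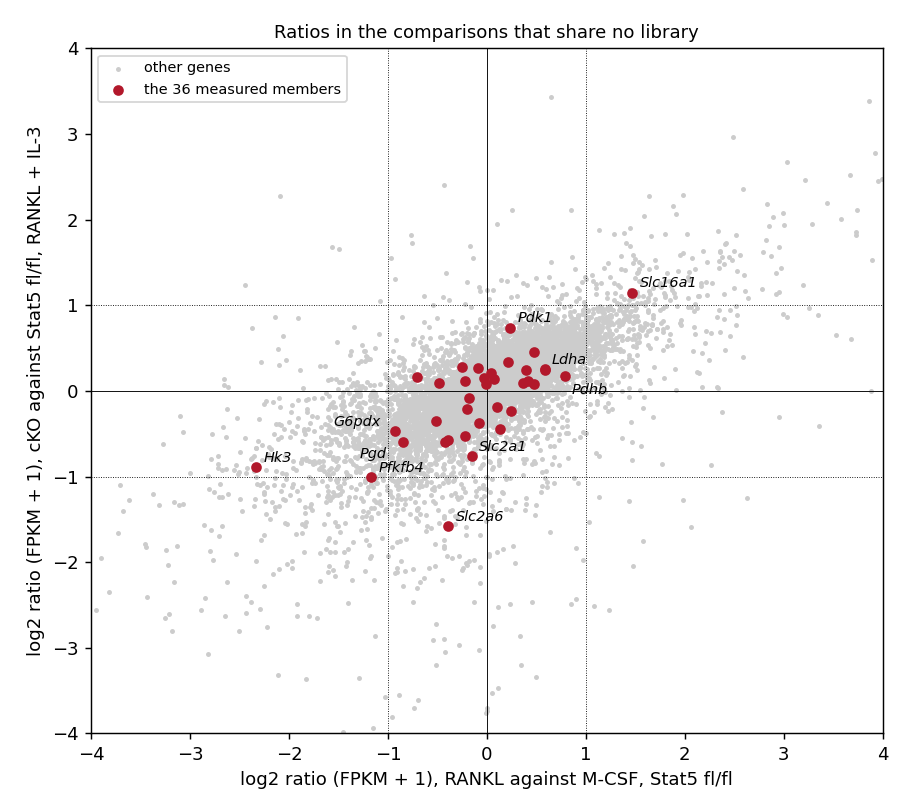
Log2 ratio, from FPKM + 1, of each gene, with RANKL over M-CSF on the horizontal axis and cKO over control cells under IL-3 on the vertical axis. The 36 measured members are red and other genes grey, of which 32 lie outside the plotted range. *Slc16a1* lies at the upper right and *Hk3* and *Pfkfb4* at the lower left, and *Slc2a6* is the lowest member on the vertical axis, with a ratio of -0.39 for RANKL.

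Another list held 51 further genes of carbohydrate and pyruvate use. Of the 38 measured, 3 were at least 2-fold lower with RANKL (6.88% of all genes were), 1 was lower with IL-3 (3.47%) and 0 differed in cKO cells (2.11% higher and 4.28% lower). The median ratios were 0.16, -0.17 and 0.16, near those of all genes. *Pgm2l1*, which makes glucose 1,6-bisphosphate, was at 13, 3.51, 6.39 and 4.64 FPKM. *Slc2a9*, a urate and sugar transporter, was at 6.66, 2.12, 3.18 and 3.36 FPKM.

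*Me1*, the cytosolic malic enzyme and another source of NADPH, was at 10.3, 4.13, 5.80 and 4.99 FPKM. All of *Pgm2l1*, *Slc2a9* and *Me1* were highest with M-CSF. *Pdpr*, the regulatory subunit of pyruvate dehydrogenase phosphatase, was highest with RANKL at 2.32, 5.13, 1.60 and 3.18 FPKM.

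None of the 74 respiratory chain genes, all of them measured, was 2-fold apart in any comparison. For RANKL against M-CSF, 69 of 74 had ratios above 0, and their median was 0.30, beside 0.14 over all genes. As the median of all genes was itself above 0, most genes measured had ratios above 0 too. When IL-3 was added the median of the 74 was -0.11, near the -0.15 of all genes. Between the genotypes it was 0.07, beside 0.13 over all genes.

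Of 17 measured regulators of the pathway, RANKL had 2 higher and 1 lower by 2-fold, where 5.44% and 6.88% of all genes were. IL-3 had 2 higher and 1 lower (6.11% and 3.47% of all genes), and 2 were lower in cKO cells (4.28%). *Epas1*, which encodes HIF-2α, was at 53.7, 5.84, 21.5 and 10.5 FPKM, the order of *Hk3*. *Myc*, a growth regulator, was at 38.4, 124, 66.1 and 114 FPKM, the order of *Slc16a1*. How many of all genes had such orders was not counted.

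*Ppargc1b*, a coactivator of mitochondrial genes, was at 0.88, 9.30, 1.82 and 4.41 FPKM, highest with RANKL and also in the order of *Slc16a1*. *Arrdc4*, a glucose-induced arrestin, was at 8.48, 8.32, 19.0 and 7.58 FPKM, the order of *Slc2a6* in that only the library with IL-3 and intact *Stat5* was high. *Hif1a* stayed between 31.2 and 41.7 FPKM. *Txnip*, which restrains glucose uptake, was at 126, 63.5, 125 and 61.1 FPKM, close to the course of *Pfkfb4*. *Hif1a* and *Txnip* were chosen after their values were seen.

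Among 15 measured genes that answer to hypoxia-inducible factors outside glycolysis, RANKL had 2 lower by 2-fold (6.88% of all genes). IL-3 had 2 higher and 2 lower (6.11% and 3.47%), and for cKO cells 2 were above and 1 was below control cells (2.11% and 4.28%). *Hmox1*, heme oxygenase 1, was at 521, 78.7, 416 and 128 FPKM, and *P4ha2*, a collagen prolyl hydroxylase, at 5.47, 0.44, 2.91 and 1.27 FPKM. Both followed the order of *Hk3*. *Tfrc*, the transferrin receptor, was at 51.9, 95.3, 28.0 and 84.7 FPKM, lowest with IL-3 in *Stat5* fl/fl cells. The list did not move in 1 direction.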

How the data were processed

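RNA of 4 cultures of mouse BMMs was sequenced, 1 library per condition. Per the labels and methods, a TruSeq RNA kit and a HiSeq2000 system were used. The submitters' processing notes name TopHat2 2.0.13, Cufflinks 2.2.1 and mm10. The table deposited by the authors holds FPKM values for 33170 RefSeq transcripts of 23920 genes. Its unit is not written there and was inferred from the software and the values, and the treatment of multiply mapped reads is not given in the sources used here. No file of read counts was used.

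Transcripts were summed per gene ID. Ratios were taken as log2(FPKM + 1), which understates the change of low genes, over the 10763 genes that reached 1 FPKM somewhere, leaving out small RNA genes recognised by symbol. A gene was called higher or lower from a 2-fold ratio on, and fold values in parentheses are of FPKM. With 1 library per condition no test was made, and labels do not tell whether a culture pooled mice.

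Depth was estimated from low values of genes with 1 transcript of at least 3000 nt, which fall on multiples of 1 fragment. Per library 71.3% to 73.0% of them were no more than 0.2 steps off such a multiple, and even spacing would give 40%. The step was fitted to the same values, so part of this excess is built in. Intervals cover counting error only. Gene positions came from the GRCm38 annotation and promoters from RefSeq on GRCm38.p6, with 37 of 38 members matched.

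The members and lists were chosen with earlier results of these data known. Named with values in every library, by rule, were members 2-fold apart, the 5 most abundant, *Pkm* and members whose leading transcript differed, and up to 4 genes of each other list with the largest ratios, of which 1 is not reported here. Other members are given by role, with values where a role has few members, chosen after the values were seen. Alternatives were a pseudocount of 0.1, keeping small RNA genes, setting the minimum to 5 FPKM or to none, the most abundant transcript per gene, scaling by median ratio or upper quartile, and thresholds of 1.5-fold and 4-fold. The sum of *Eno1* with *Gm5506* was added after seeing the data. The steps were tested on simulated data with planted changes of 4-fold or more, which does not show how well changes near 2-fold are recovered. Software was matplotlib 3.10.9, scipy 1.17.1, pandas 2.3.3 and numpy 2.4.6 under Python 3.11.15.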

Additional observations from a re-analysis of the deposited data

How the results depend on the processing

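No paired analysis was possible because every condition has 1 library. For the same reason no library could be left out. The ratios at least 2-fold apart for *Slc2a1*, *Slc2a6*, *Hk3*, *Pfkfb4* and *Slc16a1* stayed so in direction and size in all 88 alternative values. Many of these values were fixed in advance. Other minima, small RNA genes and the sum of *Eno1* with *Gm5506* cannot change the ratios of these genes. The choice of transcript cannot change those of *Slc2a1*, *Pfkfb4* and *Slc16a1*, which have 1 transcript. Only the pseudocount, the scalings and, for *Slc2a6* and *Hk3*, the choice of transcript could have changed a call. Of 84 summary values under alternatives 15 moved. Scaling to a common median ratio shifted the median of all genes by -0.15, 0.16 and -0.13 in the 3 comparisons. It made 4 members lower with RANKL, adding *G6pdx* and *Pgd*, where 8.71% of all genes were lower, and put the median of the members at -0.21, 0.20 and -0.054, the last of which changed sign from 0.09. With the most abundant transcript the median for IL-3 changed sign too, from 0.02 to -0.014. The 1.5-fold threshold gave 4 higher and 5 lower members for RANKL, 7 higher for IL-3, and for cKO 2 higher and 6 lower. The 4-fold threshold left 1 lower member for RANKL (*Hk3*) and 0 higher, and for IL-3 and cKO it left 0 in either direction. The cause of the shift with scaling was not tested. Depth limits *Ldhb*, *Pdk2* and *Eno3* most, and differences of members under 2-fold have no replicate to be read against.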
